A study of Mus musculus with 16 samples.

Results

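Lcn2, Saa3, Hp, Cp, Steap4 and Serpina3n are 6 acute-phase genes that adipose tissue itself transcribes, and their signal was followed in brown adipose tissue (BAT) and gonadal white adipose tissue (gWAT). They were selected by name from the 22911 genes with a probe on the array, with earlier results of these data known, among them the higher Lcn2 in BAT from Adipo-Pgam1 KO mice. Their differences by genotype are therefore given as values without a test. Their differences between the tissues of control mice were tested, but these data too were at hand when the genes were chosen. Those p-values therefore describe these arrays and are not independent of the choice. The array holds 10 probes for the 6 genes, and each gene is given by its brightest probe, chosen by the mean signal over all 16 arrays. One-colour arrays were hybridized with RNA of either tissue from littermate controls or Adipo-Pgam1 KO mice, 4 arrays in each of the 4 groups. Adipo-Pgam1 KO mice carried 2 floxed alleles of Pgam1, which encodes a phosphoglycerate mutase of glycolysis, and the Adipoq-Cre transgene, whose adiponectin promoter is active in brown and white adipocytes, so that Pgam1 is kept in most other cells of the tissue. The littermate controls, labelled wild-type, carried the same floxed alleles without Cre. All mice were male, of the strain labelled C57BL/6NCrSlc, and were 16 weeks old, except the Adipo-Pgam1 KO mice of replicate 4, in BAT as in gWAT, which were 14 weeks old.

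The acute-phase response is the change in secreted proteins that follows infection, injury or inflammation. The liver makes most of these proteins, after interleukin-6 and its relatives have activated Stat3 and after interleukin-1 and tumour necrosis factor have acted through NF-kB and C/EBP factors, but fat transcribes several of them locally. Lcn2 encodes lipocalin 2, a secreted protein that binds bacterial iron carriers and is also made by neutrophils and epithelia. Saa3 encodes serum amyloid A3, the main serum amyloid A of tissues outside the liver, and Hp encodes haptoglobin, which binds free haemoglobin. Cp encodes ceruloplasmin, a copper ferroxidase, Steap4 a metalloreductase of iron and copper, and Serpina3n a secreted serine protease inhibitor. In adipose tissue these genes are known as markers of inflammatory signalling and of adipokine secretion.

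Promoter windows of 300 bases around the start of transcription were taken from a set based on RefSeq (GRCm38.p6). That set held a window for each gene but Hp. Those of Lcn2, Saa3, Steap4 and Serpina3n are shown because they differ in how many matches they hold to the letters of the factors named above. Capitals mark matches on either strand to TTNNGNAA (C/EBP), TTCNNNGAA (STAT) and GGNNTTTCC (NF-kB), and adjoining capitals in Saa3 and Steap4 are overlapping matches. The windows lie at chr2:32387690-32387989 (minus strand), chr7:46715627-46715926 (minus strand), chr5:7960222-7960521 (plus strand) and chr12:104406458-104406757 (plus strand).
Lcn2: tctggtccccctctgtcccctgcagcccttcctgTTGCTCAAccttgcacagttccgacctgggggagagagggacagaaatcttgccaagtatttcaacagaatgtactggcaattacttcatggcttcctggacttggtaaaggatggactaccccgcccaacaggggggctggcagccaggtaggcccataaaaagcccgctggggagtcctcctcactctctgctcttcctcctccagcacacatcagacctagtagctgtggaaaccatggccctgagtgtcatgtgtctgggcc
Saa3: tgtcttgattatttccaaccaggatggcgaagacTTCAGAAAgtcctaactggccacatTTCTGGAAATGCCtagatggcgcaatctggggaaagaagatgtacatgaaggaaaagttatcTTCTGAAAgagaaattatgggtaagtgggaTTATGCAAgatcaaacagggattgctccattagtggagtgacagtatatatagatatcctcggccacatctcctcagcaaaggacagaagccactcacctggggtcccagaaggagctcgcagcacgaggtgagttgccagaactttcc
Steap4: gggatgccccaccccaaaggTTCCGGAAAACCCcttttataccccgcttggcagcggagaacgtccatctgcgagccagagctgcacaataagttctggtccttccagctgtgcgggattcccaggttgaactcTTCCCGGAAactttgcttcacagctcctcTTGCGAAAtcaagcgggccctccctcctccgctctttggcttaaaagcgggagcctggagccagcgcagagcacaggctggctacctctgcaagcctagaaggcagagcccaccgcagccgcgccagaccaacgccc
Serpina3n: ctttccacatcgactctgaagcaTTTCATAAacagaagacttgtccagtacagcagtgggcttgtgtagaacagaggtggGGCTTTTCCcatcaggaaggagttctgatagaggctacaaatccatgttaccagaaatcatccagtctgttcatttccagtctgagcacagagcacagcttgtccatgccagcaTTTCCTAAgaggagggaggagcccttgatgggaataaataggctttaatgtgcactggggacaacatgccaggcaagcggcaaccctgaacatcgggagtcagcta

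The window of Lcn2 held 1 match, the C/EBP letters TTGCTCAA on the opposite strand at -216 from the start of transcription. That of Saa3 held 4 matches to the C/EBP letters and 1 to those of NF-kB, and the window of Serpina3n held 2 and 1. Steap4 was the one member whose window held all 3 kinds of match, with the STAT letters TTCCCGGAA at -116. Cp has 2 windows, not printed here, each with 1 C/EBP match and the second also with 1 NF-kB match. Of all 32851 promoter windows, 40.7% held the C/EBP letters, 8.3% those of STAT, 5.8% those of NF-kB and 0.28% all of them. A match is a description of the sequence and not a binding site.

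Signal is given as the log2 of the scanner's background-subtracted intensity over the 75th percentile of its array, so that a value of 0 lies at that percentile. The percentile lay between 401.3 and 916.2, and at most 62.2% of an array's probes were well above background. In BAT the percentile was 401.3 to 451.3 in controls and 650.2 to 916.2 in Adipo-Pgam1 KO mice, so that the scaling itself differed by genotype. Arrays were spread over 3 slides. On 1 slide all 4 BAT arrays of Adipo-Pgam1 KO mice lay with BAT control replicate 4 and gWAT control replicates 1 to 3. On another, scanned on a different day from the rest, all 4 gWAT arrays labelled Adipo-Pgam1 KO lay with gWAT control replicate 4. A comparison of genotypes within a slide therefore rests on that single control. BAT control replicates 1 to 3 lay alone on the remaining slide. The tissues of controls thus shared 1 slide only, through BAT control replicate 4, so tissue and slide are largely confounded there. Pgam1 had a BAT signal of 7.94 ± 0.11 (SD, n = 4) in controls, against 6.20 ± 0.17 (SD, n = 4) with the deletion. Its gWAT signal was 5.36 ± 0.29 (SD, n = 4) in controls, whereas the arrays labelled Adipo-Pgam1 KO were higher, at 6.31 ± 0.25 (SD, n = 4) (change 0.95, limma adjusted p = 0.0139), so these arrays are named by their label and each direction in gWAT rests on it. Ucp1 and Zic1, markers of brown fat, were well above background on all 8 BAT arrays and Wt1, a marker of visceral white fat, on all 8 gWAT arrays and on no BAT array. Ucp1 was also well above background on 3 of the 4 gWAT arrays labelled Adipo-Pgam1 KO and on no gWAT control array, and summed brown fat markers there ran from 46.7 to 133.0 against 4.93 to 9.95 in controls. Skeletal muscle markers were high on the BAT arrays of Adipo-Pgam1 KO replicates 1 and 3, with Myh4 at 5.02 and 2.80, and Alb, which marks liver RNA, ranged in gWAT from 0.89 to 7.86. Scaling by the spike-in controls moved the median change of all genes in BAT from -0.081 to 0.47 and in gWAT from 0.047 to 0.44, and scaling by Actb and Rplp0 moved that in BAT to -0.67.

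In BAT, Lcn2 signal of Adipo-Pgam1 KO mice exceeded that of littermate controls by 5.16 on the log2 scale (standard error 0.56), a relative expression of 35.8. The 4 controls stood at -0.85, -1.02, -0.92 and -1.72, and the 4 Adipo-Pgam1 KO arrays at 4.35, 4.54, 5.07 and 2.17. The groups did not overlap, and the lowest Adipo-Pgam1 KO array was that of the 14-week-old mouse. The second Lcn2 probe, dimmer and well above background on 2 of the 4 control arrays, averaged -3.79 ± 0.61 (SD, n = 4) in controls, against 1.57 ± 1.21 (SD, n = 4) in Adipo-Pgam1 KO mice. Under each of the 6 other scalings and background corrections the change of Lcn2 lay between 4.57 and 5.71, and without the arrays with muscle RNA it was 4.49. Array signal comes from the whole tissue, in which fewer cells of a type and less RNA per cell cannot be told apart.

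Saa3 and Serpina3n were also higher on average in BAT from Adipo-Pgam1 KO mice. Saa3 stood at -0.22, -2.42, -4.14 and -4.85 in controls, where it was well above background on 2 of the 4 arrays, and at -0.53, -0.48, 0.16 and -0.032 in Adipo-Pgam1 KO mice. Control replicate 1 lay among the Adipo-Pgam1 KO arrays, which spanned only 0.69, so the groups overlapped. The difference of the means was 2.69 (standard error 0.88), but 1.47 after normexp background correction, between 2.04 and 3.58 with single arrays left out, and 4.63 within the shared slide, where the single control was not well above background. Serpina3n, in contrast, did not overlap. It stood at -2.70, -1.89, -3.95 and -2.82 in controls, of which the third was not well above background, and at -0.25, -0.69, -0.57 and -0.25 in Adipo-Pgam1 KO mice, a change of 2.40 (standard error 0.37) and a relative expression of 5.26. After normexp background correction it was 1.52.

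The copper and iron genes of the group moved by smaller amounts. Cp stood at 1.27, 1.39, 1.27 and 1.84 in BAT of controls and at 3.05, 3.15, 3.20 and 2.86 in that of Adipo-Pgam1 KO mice. The groups did not overlap and were 1.62 apart (standard error 0.15). Of the other 3 Cp probes, A_55_P2626135 differed by 1.63 and A_55_P2087607 by 1.41, whereas A_52_P597002 differed by 0.37. Steap4 stood at -0.023, 0.36, 0.085 and 0.36 in controls and at 1.0, 0.71, 0.24 and 0.84 in Adipo-Pgam1 KO mice, with replicate 3 among the controls. Its difference of 0.50 (standard error 0.18) turned to -0.09 under scaling by Actb and Rplp0.

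Hp was the one member that was lower in BAT from Adipo-Pgam1 KO mice. It stood at 8.21, 8.31, 8.38 and 8.57 in controls and at 7.33, 7.22, 6.95 and 7.47 in Adipo-Pgam1 KO mice, and the groups did not overlap. The change was -1.12 (standard error 0.13), a relative expression of 0.459, and it lay between -1.71 and -0.57 under the other scalings. Of the 6 members, 3 were higher without overlap and 1 was lower without overlap, beside 25.2% and 32.0% of all 14280 genes tested in BAT, and the median change of the members was 2.01 beside -0.081 for all genes. These counts describe a contrast that entered the choice of the genes, and nothing is read from them.

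**Figure D1:**
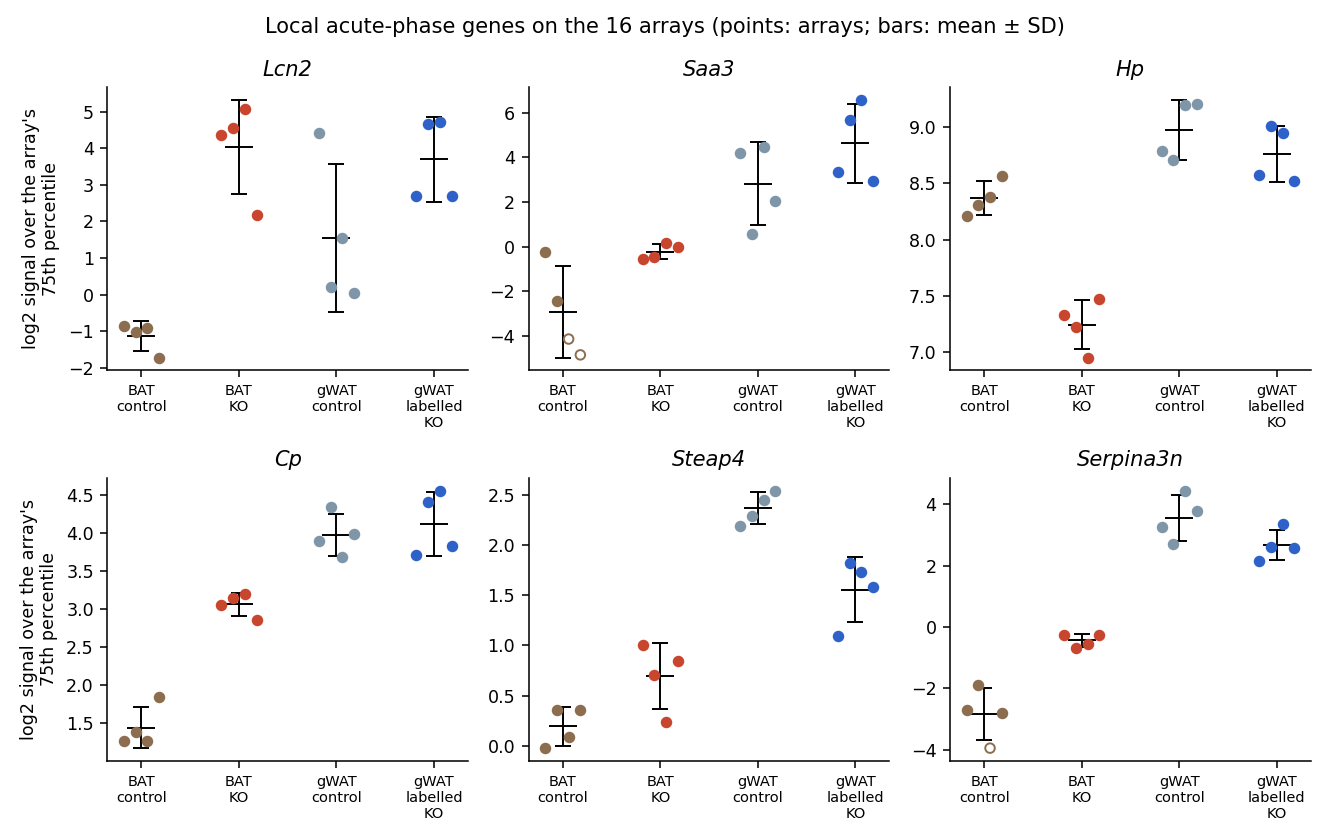
Normalized log2 signal of each member on the 16 arrays, 1 panel per gene, with a point per array (open where the probe was not well above background) and the mean ± SD of each group of 4. In BAT, Lcn2, Cp and Serpina3n of Adipo-Pgam1 KO mice lie above all controls and Hp lies below all controls, while in gWAT Steap4 alone is separated.

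In gWAT the members showed no common direction, and the signal of Lcn2 and Saa3 varied widely among arrays of the same group. Lcn2 stood at 4.41, 0.20, 1.55 and 0.054 in controls, a 20.4-fold range, and at 2.70, 4.67, 4.72 and 2.68 in the arrays labelled Adipo-Pgam1 KO. The groups overlapped through control replicate 1, and the difference of 2.14 (standard error 0.97) was 3.09 without that array and 1.64 without control replicate 4. Saa3 stood at 4.20, 0.59, 4.47 and 2.06 in controls and at 3.34, 5.69, 6.57 and 2.93 in the arrays labelled Adipo-Pgam1 KO. It too overlapped, with a difference of 1.80 (standard error 1.06) that was 1.06 without control replicate 2 and 1.16 without labelled replicate 3. The 2 highest arrays of the labelled group, replicates 2 and 3, were also those highest in Lcn2.

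Hp and Cp hardly differed between the gWAT groups. Hp stood at 8.79, 8.71, 9.20 and 9.21 in controls and at 8.58, 9.01, 8.95 and 8.52 in the labelled arrays, a difference of -0.22 (standard error 0.18). Cp stood at 3.90, 4.35, 3.69 and 3.99 in controls and at 3.71, 4.41, 4.56 and 3.83 in the labelled arrays, a difference of 0.15 (standard error 0.23). Both pairs of groups overlapped. With single arrays left out Hp lay between -0.31 and -0.13 and Cp between 0.0052 and 0.29. Hp turned to 0.18 under spike-in scaling and Cp to -0.0099 under quantile normalization.

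Steap4 and Serpina3n were lower on average in the labelled gWAT arrays, opposite to their direction in BAT. Steap4 stood at 2.19, 2.29, 2.45 and 2.54 in controls and at 1.09, 1.82, 1.73 and 1.58 in the labelled arrays, a change of -0.81 (standard error 0.18) without overlap. Serpina3n stood at 3.25, 2.70, 4.44 and 3.79 in controls and at 2.15, 2.62, 3.36 and 2.56 in the labelled arrays, a change of -0.87 (standard error 0.38) with overlap that was -0.57 without control replicate 3. None of the 6 members was higher without overlap and 1 was lower, beside 13.4% and 10.8% of all 14149 genes tested in gWAT. The median change was -0.034 for the members and 0.047 for all genes.

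Liver RNA was uneven in gWAT, and its part in these values was not tested. Alb stood at 5.26, 7.86, 3.67 and 3.43 in gWAT controls and at 0.89, 6.28, 5.98 and 4.08 in the labelled arrays, whereas it was well above background on none of the 4 BAT control arrays and on 1 of the 4 BAT arrays of Adipo-Pgam1 KO mice. The summed signal of 12 liver markers, in units of the 75th percentile, ran from 18.4 to 834.0 in gWAT controls and from 7.16 to 290.0 in the labelled arrays. In BAT the sum ran from 60.7 to 93.5 in controls and from 48.5 to 71.1 in Adipo-Pgam1 KO mice. There 5 of the 12 markers, among them Kng1 at a mean of 6.18, were well above background on all 4 control arrays. The sum is therefore no measure of liver RNA alone. Control replicate 2, with the most Alb, had the lowest Saa3 of the 8 arrays and a Lcn2 of 0.20. Labelled replicates 2 and 3, the next highest in Alb, had the highest Lcn2 and Saa3. Without the 4 arrays with Alb above 5, which left 2 of each group, Lcn2 still differed by 1.89 (standard error 0.50) and Saa3 by -0.13 (standard error 0.75). On those arrays Hp differed by -0.66, Cp by -0.064, Steap4 by -1.16 and Serpina3n by -1.76. With Alb as a covariate, Lcn2 differed by 2.30 and Saa3 by 1.88.

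**Figure D2:**
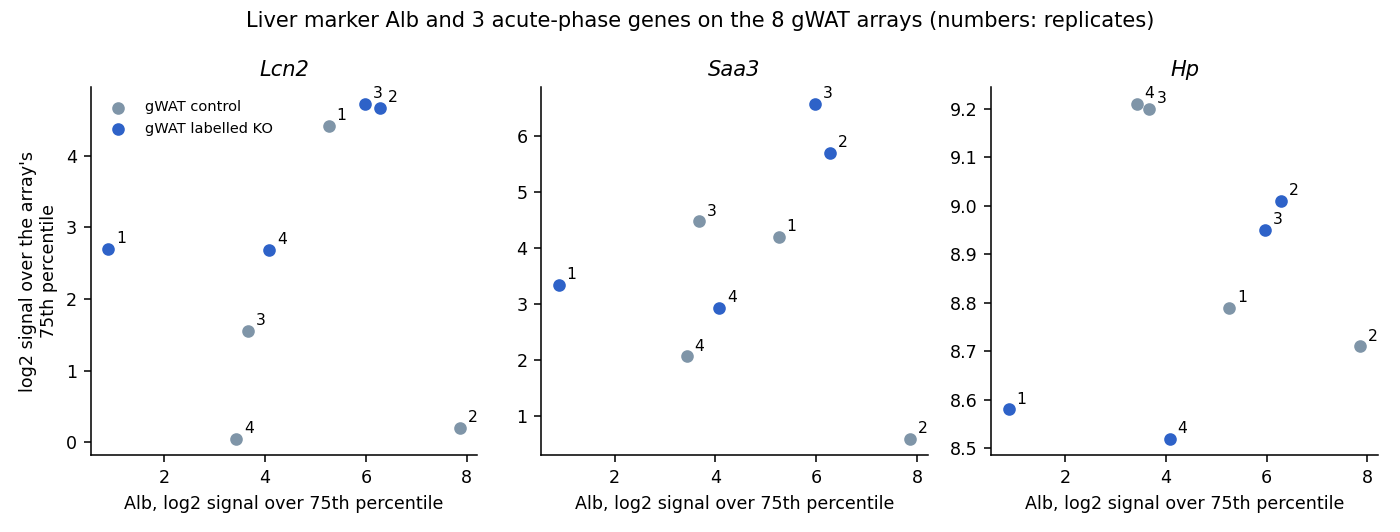
Normalized log2 signal of Lcn2, Saa3 and Hp against that of Alb on the 8 gWAT arrays, numbered by replicate. The array with the highest Alb, control replicate 2 at 7.86, has the lowest Saa3 at 0.59, and labelled replicates 2 and 3 join a high Alb to the highest Lcn2.

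Markers of other cells that can hold these transcripts also moved with the arrays, and their part was not tested. Epididymis markers summed to 5.36 in gWAT control replicate 1 and to 5.25 in labelled replicate 3, and to between 0.92 and 1.76 on the other 6 gWAT arrays, with 2 of the 10 markers well above background on all 4 arrays of each gWAT group. The same 2, Rnase10 and Ovch2, were also well above background on all 8 BAT arrays, where the sums ran from 0.912 to 1.78. Control replicate 1 and labelled replicate 3 stood at 4.41 and 4.72 in Lcn2, while labelled replicate 2, with a sum of 1.53, stood at 4.67. All 7 mesothelium markers were well above background on every gWAT array, with sums of 9.52 to 37.8 in controls and 13.4 to 29.9 in the labelled arrays. In BAT, macrophage markers summed to 26.5 to 38.2 in controls and 85.7 to 130.0 in Adipo-Pgam1 KO mice, and adipocyte markers to 2410.0 to 2630.0 and 810.0 to 1150.0. The macrophage sums in gWAT were 65.6 to 92.5 in controls and 67.9 to 186.0 in the labelled arrays. Adipocyte sums there were 1770.0 to 2820.0 and 1670.0 to 2200.0. Of the 9 neutrophil markers with a probe, Ngp and Cxcr2 were well above background on no array, and S100a8, which was on 3 of the 4 BAT control arrays, stood between -4.01 and -0.36 on those and between -1.47 and -0.29 on the BAT arrays of Adipo-Pgam1 KO mice. Of the 6 neutrophil markers tested in BAT, 3 had a higher and 3 a lower mean with the deletion, 1 and 2 of them past the threshold, and the median change was 0.11.

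Lcn2, Hp, Cp and Steap4, which were well above background on all 8 control arrays, were each higher in gWAT than in BAT of control mice (limma, adjusted p below the threshold of 0.05), beside 29.3% of all 14304 genes called higher in gWAT and 35.4% called lower. Serpina3n and Saa3 were well above background on 3 and 2 of the 4 BAT control arrays and entered the test through gWAT, where they were high, so their differences are given without a p. Serpina3n stood at -2.84 ± 0.85 (SD, n = 4) in BAT and 3.54 ± 0.74 (SD, n = 4) in gWAT, a measured difference of 6.38 (standard error 0.48). Saa3 stood at -2.91 ± 2.06 (SD, n = 4) and 2.83 ± 1.84 (SD, n = 4), 5.74 apart (standard error 1.16), with 4.32 after normexp background correction and 7.94 with the slide as a fixed block. Neither gene's groups overlapped. Lcn2 went from -1.13 ± 0.40 (SD, n = 4) in BAT to 1.55 ± 2.02 (SD, n = 4), a difference of 2.68 (standard error 0.87, limma adjusted p = 0.0239), which was 1.73 without gWAT control replicate 1.

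Cp and Steap4 separated the tissues with little spread. Cp was 1.45 ± 0.27 (SD, n = 4) in BAT and 3.98 ± 0.28 (SD, n = 4) in gWAT, 2.53 apart (standard error 0.18, limma adjusted p = 8.13e-06). Steap4 was 0.20 ± 0.20 (SD, n = 4) in BAT and 2.37 ± 0.16 (SD, n = 4) in gWAT, 2.17 apart (standard error 0.14, limma adjusted p = 3.98e-06). Hp differed least, with 8.37 ± 0.15 (SD, n = 4) in BAT and 8.98 ± 0.27 (SD, n = 4) in gWAT, 0.61 apart (standard error 0.16, limma adjusted p = 0.00779). The median difference of the 6 members, with the dim signals as measured, was 2.61 beside -0.10 for all genes. Without the 2 control arrays with Alb above 5, Lcn2, Hp, Cp and Steap4 still passed, with Lcn2 at 1.93. Lcn2 no longer passed without BAT control replicate 4 (limma adjusted p = 0.0583) or with the slide as a fixed block (0.066), nor did Hp with that block (0.274) or under scaling by Actb and Rplp0 (0.0793).

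**Figure D3:**
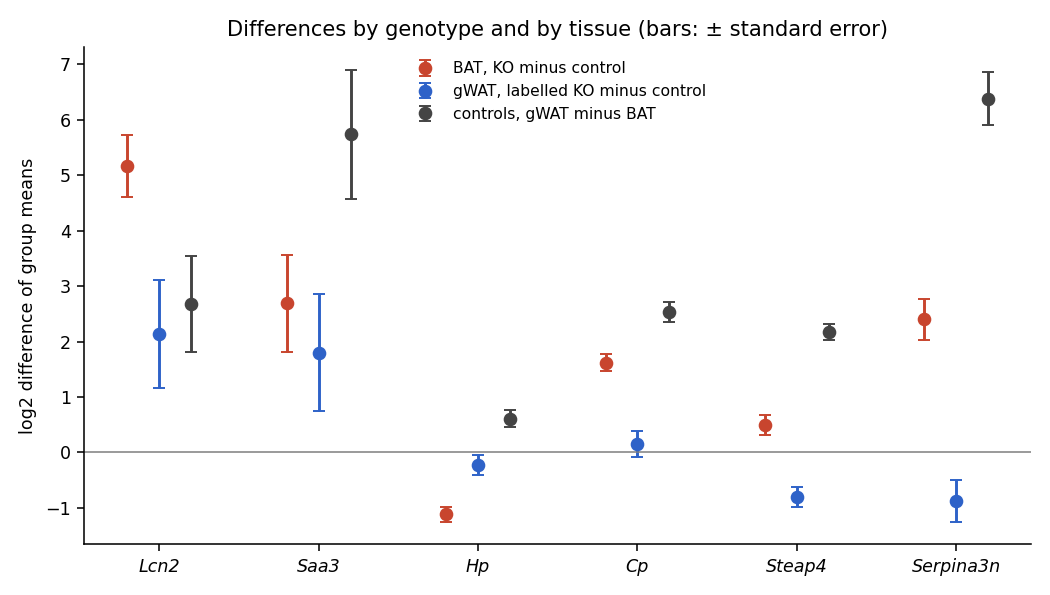
Differences of group means in normalized log2 signal for each member, by genotype in BAT, by label in gWAT and between the tissues of controls, with bars of ± 1 standard error from limma. The tissue difference lies above 0 for each member, the BAT difference below 0 for Hp, at -1.12, and the gWAT differences run from -0.87 for Serpina3n to 2.14 for Lcn2.

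Ordered by their means, the groups formed a different sequence for each of several members. For Lcn2, BAT of controls was lowest and was separated from gWAT of controls, while gWAT of controls, the labelled gWAT arrays and BAT of Adipo-Pgam1 KO mice followed with overlapping ranges, the last pair only 0.34 apart. For Saa3 the order was BAT of controls, BAT of Adipo-Pgam1 KO mice, gWAT of controls and the labelled gWAT arrays, and the step from BAT to gWAT, of 3.05, was the one without overlap. Cp had the same order, with overlap between the gWAT groups only. Steap4 and Serpina3n ran from BAT of controls through BAT of Adipo-Pgam1 KO mice and the labelled gWAT arrays to gWAT of controls. Their ranges overlapped at 1 step each, between the BAT groups for Steap4 and between the gWAT groups for Serpina3n. Hp was lowest in BAT of Adipo-Pgam1 KO mice, and its next 3 groups overlapped with their neighbours.

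A list of 27 other acute-phase genes moved both ways in BAT. Of the 18 tested, 11 rose and 6 fell in Adipo-Pgam1 KO mice (limma, adjusted p below 0.05), beside 27.5% and 34.0% of all genes tested, and the median change was 0.85. Of the 15 well above background on all 8 arrays, 8 rose and 6 fell. The share of all genes under that filter was not computed, here or for the lists below. Ptx3, a pentraxin secreted in inflamed tissue, was well above background on all 4 Adipo-Pgam1 KO arrays and on 1 of the 4 control arrays, and its measured change was 5.86 (standard error 0.91). Itih4, a plasma protein of the inter-alpha-trypsin inhibitor family, rose by 3.58 (standard error 0.48, limma adjusted p = 2.74e-04), although its second probe changed by 1.39. Il1rn, the interleukin-1 receptor antagonist, rose by 2.56 (standard error 0.30, limma adjusted p = 1.39e-04), with 1.32 for its second probe.

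Among the genes that fell, Lrg1, a leucine-rich glycoprotein of plasma, fell by 2.46 on the log2 scale (standard error 0.12, limma adjusted p = 4.12e-06). Genes named here after their values were seen include C3, the central complement component, which fell by 1.76 (limma adjusted p = 3.14e-05), and the 3 orosomucoid genes. Orm1 fell by 0.91 (limma adjusted p = 0.00481), Orm2 by 0.84 (limma adjusted p = 0.00525) and Orm3 by 1.42 (limma adjusted p = 3.77e-04). Under spike-in scaling Orm1 and Orm2 changed by -0.36 and -0.29 and no longer passed. Lbp, the lipopolysaccharide-binding protein, also named after its value was seen, rose by 2.15 (limma adjusted p = 1.24e-05).

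In gWAT, 1 of the 20 tested genes of this list rose and 2 fell by label, beside 9.99% and 7.85% of all genes, and the median change was -0.078. The one that rose, Il1rn, was well above background on 2 of the 4 control arrays and entered the test through the labelled arrays, with a measured change of 2.86 (standard error 0.75). Its call was lost without labelled replicate 1 or 3 or control replicate 1, 2 or 3 (adjusted p between 0.0512 and 0.0753). Lrg1 fell by 1.31 (standard error 0.25, limma adjusted p = 0.0119). With the slide as a fixed block neither passed (adjusted p = 0.419 for Il1rn and 0.138 for Lrg1).

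The cytokines, receptors and factors that induce acute-phase genes were followed in a list of 26. In BAT, 12 of the 23 tested rose and 2 fell with the deletion, beside 27.5% and 34.0% of all genes, and the median change was 0.61. Of the 20 well above background on all 8 arrays, 10 rose and 2 fell. Osm, an interleukin-6 family cytokine, was not well above background on any control array and entered the test through the Adipo-Pgam1 KO arrays. It was at least 4.40-fold higher there. Its receptor gene Osmr rose by 2.36 (standard error 0.24, limma adjusted p = 6.49e-05). The receptor gene Tnfrsf1b rose by 2.36 (limma adjusted p = 1.92e-05). Il17ra, well above background on 3 of the 4 control arrays, had a measured change of 2.35. Il6 rose above background on 3 of the 4 Adipo-Pgam1 KO arrays and on no control array, too few for the test. The groups overlapped, since Adipo-Pgam1 KO replicate 3 lay among the controls, and the bound of at least 4.21-fold higher was 9.71 without that array. Il1b, well above background on 3 of the 4 control arrays, changed by 1.78 and Tnf by -0.64, and neither passed (limma adjusted p = 0.118 and 0.0547). Without Adipo-Pgam1 KO replicate 3, Il1b had a measured change of 2.45 and passed the threshold. Tnf turned to 0.94 as the mean over its probes (adjusted p = 0.0324), and on its brightest probe passed at -0.76 without Adipo-Pgam1 KO replicate 4 or control replicate 3 (0.0415 and 0.0401).

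Of the factors downstream, Cebpd rose by 1.82 (standard error 0.31, limma adjusted p = 9.2e-04) and Cebpb fell by 0.83 (standard error 0.19, limma adjusted p = 0.00435), with Cebpb at -0.28 and not past the threshold under spike-in scaling. Stat3 changed by 0.69 (standard error 0.24, limma adjusted p = 0.0362). Socs3, the feedback inhibitor that Stat3 induces, changed by 2.35 (standard error 0.74, limma adjusted p = 0.0222). The calls of both were lost without any of Adipo-Pgam1 KO replicates 1, 2 and 4 and control replicates 2, 3 and 4, with adjusted p between 0.0506 and 0.0617 for Socs3 and between 0.0652 and 0.092 for Stat3. Under scaling by Actb and Rplp0, Stat3 changed by 0.094 and did not pass. Socs3 stood at 3.63, 3.46, 0.61 and 3.34 on the Adipo-Pgam1 KO arrays of BAT and Il6 at -0.65, -1.12, -5.50 and -0.28. Replicate 3, the lowest in both, was the highest of its group in Lcn2, at 5.07.

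In gWAT 1 of the 22 genes tested rose and 1 fell, beside 9.99% and 7.85% of all genes, with a median change of 0.044. Jak1, a kinase of cytokine receptors, rose by 0.49 (standard error 0.13, limma adjusted p = 0.0323), and Lifr, the receptor of leukaemia inhibitory factor, fell by 0.79 (standard error 0.23, limma adjusted p = 0.0442). Without any one of labelled replicates 1 to 3 or control replicates 2 and 3 neither passed (adjusted p between 0.0535 and 0.112), and Jak1 was lost without control replicate 1 and Lifr without control replicate 4 as well (0.0634 and 0.0895). Il6 was well above background on 1 array of each gWAT group. Socs3 changed by 0.48, Stat3 by 0.057, Cebpb by 0.18 and Cebpd by -0.10, and Tnf by 0.031, none past the threshold.

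**Figure D4:**
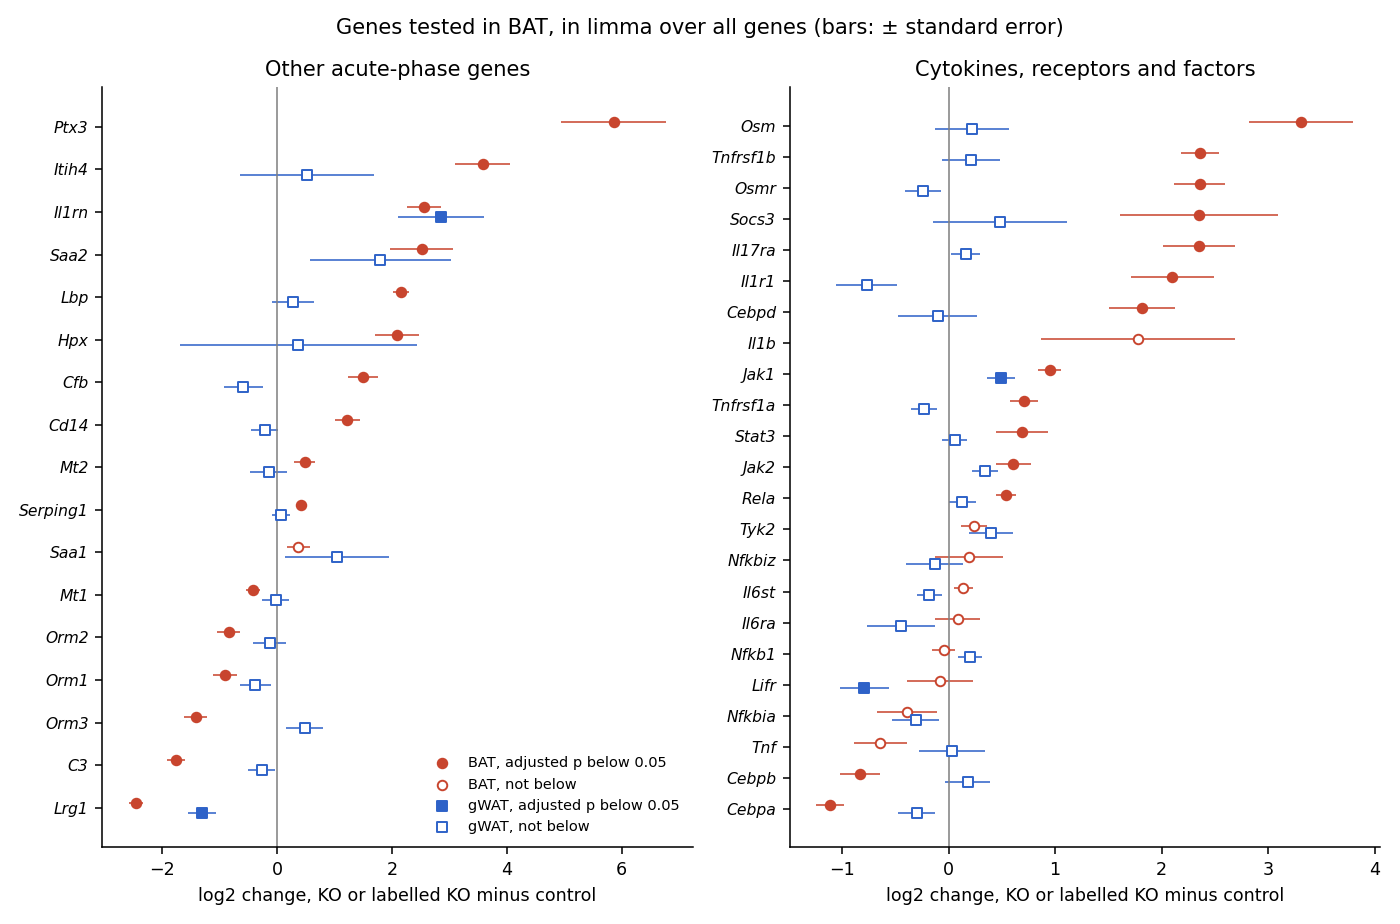
Log2 change by genotype in BAT (circles) and by label in gWAT (squares) for the genes of the 2 lists that were tested in BAT (1 acute-phase gene is not shown), with bars of ± 1 standard error and filled symbols where the limma adjusted p was below 0.05. In BAT, Itih4 at 3.58 and Osmr at 2.36 lie to the right and Lrg1 at -2.46 to the left, while most gWAT symbols are open. The BAT positions of Ptx3, Osm, Saa2, Hpx, Il17ra and Il1b rest on controls of which some were not well above background. Control arrays above it numbered 1 of 4 for Ptx3, 0 for Osm, 2 for Saa2 and Hpx, and 3 for Il17ra and Il1b.

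Of the genes that act with the members, 13 were tested in BAT, of which 5 rose and 2 fell, beside 27.5% and 34.0% of all genes. Hmox1, the haem oxygenase that breaks down haem delivered by haptoglobin and other carriers, rose by 2.19 (standard error 0.58, limma adjusted p = 0.0101) and was lost without the arrays with muscle RNA (adjusted p = 0.0519). Tlr2 and Tlr4, receptors of bacterial products, rose by 2.12 (limma adjusted p = 1.65e-04) and 1.96 (limma adjusted p = 3.31e-05). Gzmb, a serine protease of cytotoxic cells, was well above background on 1 of the 4 control arrays, with a measured change of 1.55, and changed by 0.24 after normexp background correction. Slc22a17, which encodes a cell-surface receptor of lipocalin 2, was among the genes that fell, by 1.43 (limma adjusted p = 5.28e-04). It fell in gWAT too, by 1.46 on the log2 scale (standard error 0.18, limma adjusted p = 0.00295), from values of 1.78 to 2.14 in controls to values of 0.25 to 0.96 in the labelled arrays. Hmox1 rose in gWAT by 0.95 (standard error 0.20, limma adjusted p = 0.0159), and the other 11 tested there did not pass, beside 9.99% and 7.85% of all genes that rose and fell.

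The closest relatives of the members were followed for comparison, and cross-hybridization between the near-identical genes of the Serpina3 and Saa clusters was not assessed. In BAT, 7 of 14 tested rose and 1 fell, beside 27.5% and 34.0% of all genes, but 5 of the 7 were not well above background on every control array. Of the 7 relatives above it on all 8 arrays, 2 rose and 1 fell. Steap1, a relative of Steap4, rose by 2.82 (standard error 0.28, limma adjusted p = 5.79e-05), from values of -3.17 to -1.79 to values of 0.20 to 0.81. Hephl1, a ferroxidase related to Cp, had a measured change of 2.84 (standard error 0.33) and was well above background on 2 of the 4 control arrays. Saa2, well above background on 2 of the 4 control arrays, and Serpina3f, on 1 of them, had measured changes of 2.52 and 2.72, neither past the threshold with the slide as a fixed block (adjusted p = 0.124 and 0.413). Saa1 changed by 0.37 without passing. Steap2 was well above background on no control array and was at least 2.53-fold higher.

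In gWAT, 1 of 14 relatives rose and 5 fell, beside 9.99% and 7.85% of all genes. Serpina3c fell by 1.28 (limma adjusted p = 0.00619), the direction that Serpina3n had there. Serpina3h, well above background on 3 of the 4 labelled arrays, had a measured change of -1.45. Heph, a membrane homologue of Cp named after its value was seen, fell by 1.11 (limma adjusted p = 0.00694). Steap2 fell by 1.22 (limma adjusted p = 0.0423), but passed in fewer than all leave-one-out fits, with adjusted p of 0.0708 to 0.107 without labelled replicate 1, 2 or 4 or control replicate 1, 2 or 4. Hephl1, well above background on 2 of the 4 controls, had a measured change of 3.61. Its call was lost without labelled replicate 1 (limma adjusted p = 0.0622) or control replicate 2 (0.052). In controls, 6 of the 7 relatives well above background on all 8 arrays were higher in gWAT than in BAT and none was lower. The shares of 29.3% and 35.4% are over all genes tested, without that filter. Heph was among the 6, higher by 4.76 (standard error 0.18, limma adjusted p = 5.87e-07). Without the 4 gWAT arrays with Alb above 5, which left 2 arrays in each group, none of the gWAT calls named here for the lists passed (adjusted p from 0.0701 for Lrg1 to 0.517 for Jak1).

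Among 14794 genes, those whose profile over the 16 arrays lay nearest to that of Lcn2, after each gene's mean was subtracted, were Ntn1, Nrcam, Mthfd2, Ddit4l and Pvt1, with mean absolute log2 differences of 0.85, 0.88, 0.90, 0.96 and 0.97. Ntn1 encodes the guidance cue netrin-1, Nrcam a cell adhesion molecule, Mthfd2 a mitochondrial enzyme of folate metabolism, Ddit4l a stress-regulated inhibitor of growth signalling and Pvt1 a long noncoding RNA. Ntn1 stood between -3.54 and -3.20 in BAT of controls and between 0.92 and 1.62 in that of Adipo-Pgam1 KO mice. Like Lcn2, Nrcam was lowest among the BAT arrays of Adipo-Pgam1 KO mice in replicate 4, at -0.54. In BAT of controls, Ddit4l was well above background on no array and Nrcam and Pvt1 on 1 of the 4 each. They entered the comparison through other groups, so their distances from Lcn2 rest in part on dim signals. The other members lay farther from Lcn2, from 1.59 for Cp and 1.97 for Serpina3n to 2.08 for Steap4, 2.26 for Saa3 and 2.40 for Hp.

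**Figure D5:**
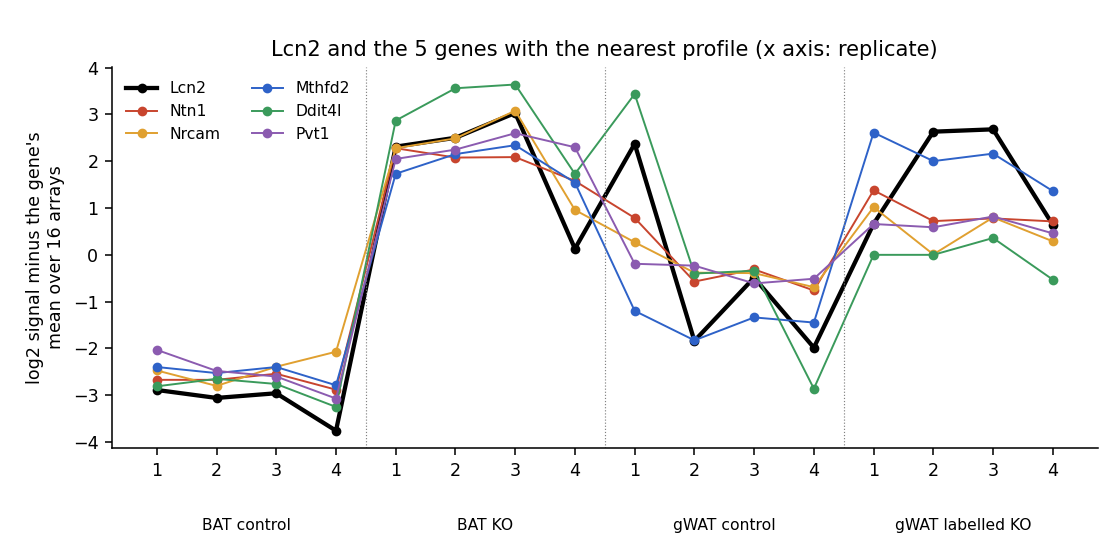
Normalized log2 signal minus the gene's own mean over the 16 arrays, for Lcn2 (thick black line) and the 5 genes nearest to it, with arrays in the order of group and replicate. The lines of all 6 genes step up between the BAT groups and spread more on gWAT, where Lcn2 runs from 0.054 to 4.72 before the mean is subtracted. The steps of Ddit4l, Nrcam and Pvt1 rest on dim BAT controls. Ddit4l was well above background on none of these arrays, and Nrcam and Pvt1 on 1 of 4.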

How the data were processed

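RNA of 16 samples, 4 each of BAT and gWAT from littermate controls and Adipo-Pgam1 KO mice, was labelled with Cy3 and hybridized to 1-colour Agilent mouse arrays. The labels give 100 ng of RNA per array. The authors deposited the scanner's output (Agilent Feature Extraction 10.7.1.1), of which the processed signal, a background-subtracted intensity, was used, and a table of normalized intensities that equals the signal over the array's 75th percentile to within rounding. The deposited intensity was divided by its array's 75th percentile and brought to the log2 scale here, replicate spots were averaged and control and irregular spots left out. Of 35886 probes with a RefSeq accession, 32994 matched 1 current symbol. Each gene is its brightest probe, tested where every array of 1 or both groups compared had it well above background. No spot was saturated. The lowest signal well above background on each array served as the floor for a lower bound ("at least") on a fold.

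Groups were compared with limma 3.58.1 (R 4.3.3, lmFit and eBayes), on the arrays of the 2 groups compared and without covariates, with Benjamini-Hochberg adjustment over all genes tested and a threshold of 0.05. The labels do not say whether same-numbered arrays share a mouse, and arrays are replicates only as far as the labels say that they are separate samples, so the p-values measure the spread between these arrays. Their number limits the precision. The fit was tested on simulated data. The members and all gene lists were chosen with earlier results of these data known, and the 27, 26, 17 and 18 genes of the lists of other acute-phase genes, inducers, partners and relatives were written by hand, some on 2 lists. One gene of the first list counts in its totals and is not reported here. Genes named are the members, Pgam1, liver markers, the 4 largest called changes per list and tissue, Il6, Il1b, Tnf, Stat3, Socs3, Cebpb and Cebpd, and the 5 genes nearest to Lcn2, plus a few named after their values were seen. Alternatives were centring on array medians, quantile, spike-in and Actb with Rplp0 scaling, normexp on the median signal (the mean signal was not used here), the deposited table, the slide as a block, a replicate block, the mean over probes, no filter, each array left out, and the methods' t-test.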

Additional observations from a re-analysis of the deposited data

Results flagged for a closer look

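Of 223 sets of 4 arrays, 1 for each of 60 genes (members, Pgam1, liver markers, genes named from the lists and those nearest to Lcn2) and each group in which it was above background, 9 held an array far from the other 3, a number that chance alone can give, since about 1 set in 20 is expected to. No member was among them. In BAT of Adipo-Pgam1 KO mice, replicate 3 was lowest in Il6 (-5.50, the others -1.12 to -0.28) and in Socs3 (0.61, the others 3.34 to 3.63), replicate 4 was highest in Hmox1 (5.45, the next 4.79) and replicate 1 was lowest in Serpina3h (-3.55, the next -3.07). Among gWAT arrays labelled Adipo-Pgam1 KO, replicate 1 was highest in Ptx3 (-0.93, the next -3.41), Il17ra (-1.88, the next -2.12), Serpina3f (-3.35, the next -4.99) and Ntn1 (0.72, the next 0.12). In gWAT of controls, replicate 4 was highest in Stat3 (4.34, the next 4.11).

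In 4 of these genes, among those tested in both tissues, every BAT array of Adipo-Pgam1 KO mice lay on the same side of the controls. Every gWAT array labelled Adipo-Pgam1 KO lay on the other side of its controls, a difference that was not tested. Pgam1 differed by -1.74 in BAT, against 0.95 in gWAT, Tlr4 by 1.96 and -0.34, Serpina3h by 0.97 and -1.45, and Heph by 0.87 and -1.11. Serpina3h was well above background on 1 of the 4 BAT control arrays, and Heph was named after its values were seen. The share of all genes with such a pattern was not computed, and nothing is read from this count.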

How the results depend on the processing

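In BAT the change of Lcn2 lay between 4.57 and 5.78 over 19 alternatives and was 4.49 without the arrays with muscle RNA. The median change of the 6 members in BAT was 2.01, but 2.56 with spike-in scaling, 1.42 with Actb and Rplp0 scaling and 1.49 after normexp background correction, and 1.79 to 2.16 with single arrays left out. In gWAT their median of -0.034 changed sign to 0.088 when centred on array medians, 0.36 with spike-in scaling and 0.016 with Alb as a covariate (this, and leaving out arrays by Alb or muscle markers and the counts over genes above background on all 8 arrays, was chosen after seeing the data), and ran from -0.14 to 0.066 with single arrays left out. For single members, Steap4 in BAT was -0.09 with Actb and Rplp0 scaling, and in gWAT Hp was 0.18 with spike-in scaling, Cp -0.0099 with quantile normalization, and Saa3 -0.13 and Cp -0.064 without the arrays with Alb above 5. Between the tissues of controls, 4 to 6 members passed over 21 alternatives (Saa3 and Serpina3n, dim in BAT, counted). Called genes of the acute-phase list numbered 17 in BAT, 11 with the slide as a fixed block, and 3 in gWAT, 0 with that block and 0 without the arrays with Alb above 5. Those of the inducer list in gWAT numbered 2, but 0 when centred on medians, with the slide as a fixed block, without a filter, with Alb as a covariate or without the arrays with Alb above 5, 4 with quantile normalization, 6 with spike-in scaling, 1 with the replicate block, 0 to 2 with single arrays left out, and 5 unadjusted and 1 adjusted by the methods' t-test. Deviations of same-numbered arrays from their group means correlated between -0.159 and 0.55 over all comparisons. Of the comparisons made, only that between the tissues of controls could share mice, and there same-numbered arrays correlated at 0.182, 0.124, 0.125 and -0.033. Unlike numbers of that comparison correlated between -0.206 and 0.151. The tissues of Adipo-Pgam1 KO mice, each with a 14-week-old replicate 4, could share mice too but were not compared. Whether same-numbered arrays pair was not settled, and the main fits did not pair them. The replicate block moved no other count of these lists by over 1.5 times. Calls over all genes in gWAT numbered 2525, but 1088 with the replicate block, 184 with the slide as a fixed block, 1384 when centred on medians, 1138 without a filter and 5807 with spike-in scaling. Saa3 and Serpina3n in BAT of controls lie near background, which limits the size of their changes. The causes of these shifts were not tested.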
